A study of Mus musculus with 6 samples.

Results

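The Platr transcripts (pluripotency-associated transcripts) are a numbered group of genes annotated mostly as long non-coding RNAs in mouse embryonic stem cells. They were taken here as every row whose gene name is Platr followed only by digits, which gave 8 of the 1653 genes in the count tables: Platr3, Platr6, Platr13, Platr15, Platr17, Platr19, Platr23 and Platr29. The reference annotation GENCODE vM21 holds 30 genes named in this way, and the others are not analysed here. Counts came from 6 poly-A RNA-seq libraries of C57BL/6 mouse embryonic stem cells, 3 of wild type and 3 of Yaf2KO, a line made with Cas9. Cells of both genotypes were grown with serum and leukemia inhibitory factor over fibroblasts of mouse embryos that had been inactivated with mitomycin-C, and no further treatment or time point separates the groups. The labels do not say which allele or how many clones the Yaf2KO line holds, or whether the replicates are separate cultures, so a p-value here weighs genotype against a spread between samples that may be purely technical.

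Embryonic stem cells are kept in self-renewal by a network of transcription factors that includes OCT4, SOX2 and NANOG. Platr genes received their name from a survey of long non-coding RNAs whose levels in these cells follow the pluripotency genes and drop on differentiation, and what most of them do is not known. YAF2 belongs to variant Polycomb repressive complexes 1, which silence developmental and germline genes through histone H2A ubiquitination. The contrast asks how the transcripts differ between Yaf2KO and wild type, as the study's title on expression regulation by Yaf2 implies.

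The 8 genes lie on 6 chromosomes of mm10 (GRCm38), with the same coordinates in the deposited tables and in GENCODE vM21. Platr15 and Platr13 share sequence although they lie on different chromosomes. Platr15 (ENSMUSG00000086563, chr2:150704536-150706876, minus strand) and Platr13 (ENSMUSG00000086475, chr11:41218837-41221096, plus strand) are both 3-exon long intergenic non-coding RNAs, with 768 and 375 exonic bases. Their first exons, of 193 and 100 bases, gave no alignment beyond 9 identical bases. The second exons, of 91 bases each, are printed here from the GENCODE vM21 transcripts because they differ at 1 base, G52A counted from the first base of the exon with the base of Platr15 first, and capitals mark that base. They occupy chr2:150706190-150706280 on the minus strand in Platr15 and chr11:41219661-41219751 on the plus strand in Platr13.
Platr15 exon 2: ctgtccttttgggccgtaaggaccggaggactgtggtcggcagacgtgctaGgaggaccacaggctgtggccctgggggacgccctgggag
Platr13 exon 2: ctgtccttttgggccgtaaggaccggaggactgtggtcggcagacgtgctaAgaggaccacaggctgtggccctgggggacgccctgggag

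The first 182 of the 484 bases of the third exon of Platr15 (chr2:150704838-150705019, minus strand) aligned with all 184 bases of the third exon of Platr13 (chr11:41220913-41221096, plus strand). Of the aligned bases 171 are identical, 11 are mismatched and 2 are in a gap, an identity of 92.9%, against 98.9% over the second exons. Capitals mark the mismatched and gapped bases.
Platr15 exon 3: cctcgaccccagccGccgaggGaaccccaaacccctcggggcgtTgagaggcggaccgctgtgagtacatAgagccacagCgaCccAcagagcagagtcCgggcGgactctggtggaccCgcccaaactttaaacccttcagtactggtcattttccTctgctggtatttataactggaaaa
Platr13 exon 3: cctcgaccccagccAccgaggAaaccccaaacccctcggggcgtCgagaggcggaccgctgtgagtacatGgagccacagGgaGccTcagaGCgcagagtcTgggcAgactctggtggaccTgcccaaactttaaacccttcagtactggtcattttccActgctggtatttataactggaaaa

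**Figure D1:**
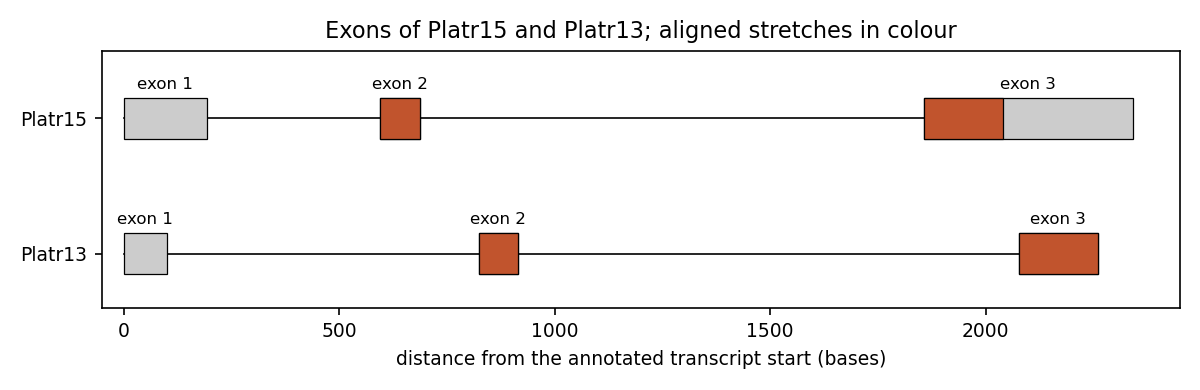
Exons of Platr15 and Platr13 drawn to scale against the distance in bases from each annotated transcript start; lines are introns, grey boxes are exonic sequence without alignment and coloured boxes are aligned stretches. The whole of exons 2 and 3 of Platr13 and the first 182 bases of exon 3 of Platr15 are aligned, and exon 1 differs between the genes.

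Because of this sequence a read from one gene can fit the other. Of the 326 windows of 50 bases in the Platr13 transcript, 50 (15.3%) were found without mismatch in transcripts of 5 other genes, Platr15 and the listed pseudogene Olfr718-ps1 among them. A match to the reverse complement of a transcript counted too, here and below. In Platr15 it was 138 of 719 windows (19.2%), shared with 10 genes, and in Platr17 it was 166 of 758 (21.9%), shared with 36 genes. The counts of these 3 genes are therefore uncertain in part, since the treatment of reads with several matches is not stated in the sources used here. Platr3, Platr6, Platr19, Platr23 and Platr29 shared 0 such windows with any other gene. These shares take all other genes together and leave out windows with any mismatch. They therefore do not measure how far reads of Platr13 and Platr15 in the aligned exons can be confused.

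Platr17 goes against the group's name. GENCODE vM21 annotates it (ENSMUSG00000092349, chr17:33905135-33906675, plus strand, 3 exons, 807 exonic bases) as protein-coding, and RefSeq calls the gene Smim40, a small integral membrane protein. Its reading frame of 81 codons lies whole within exon 2 (chr17:33905638-33905883, plus strand, mm10) and is printed from GENCODE vM21, with the start and stop codons in capitals, because it sets Platr17 apart from the 7 genes annotated as long intergenic non-coding RNAs.
Platr17 reading frame: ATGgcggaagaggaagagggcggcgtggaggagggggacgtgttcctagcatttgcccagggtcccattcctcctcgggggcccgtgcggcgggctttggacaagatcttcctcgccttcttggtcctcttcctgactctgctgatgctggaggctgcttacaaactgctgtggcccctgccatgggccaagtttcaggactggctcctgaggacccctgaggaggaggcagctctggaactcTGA

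The other 5 genes have their own surroundings. Platr3 (chr2:135648907-135652063, plus strand, 4 exons, 412 exonic bases) lies 6947 bases from Plcb4, a phospholipase C gene. Platr6 (chr10:21830499-21844851, minus strand, 5 exons, 1818 exonic bases) lies 37332 bases from Sgk1, a serum-induced kinase. Platr23 (chr1:136622098-136624650, minus strand, 2 exons, 2439 exonic bases) starts 250 bases from Zfp281, a zinc finger factor gene on the opposite strand that is expressed in embryonic stem cells. Platr19 (chr12:12787985-12794285, plus strand, 2 exons, 1466 exonic bases) has Mycn as its nearest coding gene, 141807 bases away. Platr29 (chr2:165976757-165985924, minus strand, 6 exons, 830 exonic bases) overlaps the non-coding gene Gm11464 on its own strand over 5199 bases, and lies 6711 bases from Ncoa3, a nuclear receptor coactivator gene. No other Platr gene overlaps an annotated gene. Gm11464 is on the same strand as Platr29, so a strand setting would not separate them, but their transcripts share 0 exact windows of 50 bases. No strand setting of the counting is given, so whether antisense reads were counted is not known.

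The listed genes summed to between 56367 and 72975 reads in wild type and between 143682 and 451075 in Yaf2KO. These sums cover 1653 genes only and are not the depth of the libraries, so values were also scaled: a scaled value (CPM) is the reads of a gene per 1000000 reads of the listed genes after TMM normalization, and a fold change of 0 on the log2 scale is that of the typical listed gene. Of 7 embryonic stem cell markers, Klf4, Klf5, Nanog and Tet2 are listed, and all 4 had at least 94 reads in every library. Yaf2 itself is not among the rows used here, so the targeted gene could not check the labels. Bulk RNA cannot tell fewer cells that express a gene from less RNA of it in each cell.

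Platr13 stood furthest from the rest of the group. It had 23, 22 and 8 reads in wild type 1 to 3 and 363, 356 and 264 in Yaf2KO 1 to 3. Every Yaf2KO library was far above every wild-type library, and the 3 Yaf2KO counts lay close to one another while the sums of the listed genes in the same libraries differed by more. Scaled, Platr13 had 343.2, 379.7 and 115.5 CPM in wild type (279.5 ± 143.2, SD, n = 3) and 747.7, 1404 and 1990 CPM in Yaf2KO (1381 ± 621.5, SD, n = 3). The groups did not overlap on this scale either: Yaf2KO 1 was lowest and Yaf2KO 3 highest in the knockout, and wild type 3 was the lowest of all. The fitted log2 fold change was 2.30 (SE 0.60), the tenth largest of 376 tested genes, with an unadjusted p of 0.00303. It did not pass the threshold after adjustment over all tested genes (edgeR quasi-likelihood, Benjamini-Hochberg adjusted p = 0.142).

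Platr15, which shares exons 2 and 3 with Platr13, had 84, 62 and 23 reads in wild type and 880, 441 and 222 in Yaf2KO. Again no knockout library was within the wild-type range, and the knockout counts had the order of the libraries' listed sums. Scaled values were 1254, 1070 and 332 CPM in wild type (885.2 ± 487.8, SD, n = 3) and 1813, 1740 and 1674 CPM in Yaf2KO (1742 ± 69.62, SD, n = 3). The knockout libraries were nearly alike, whereas wild type 3 lay far below wild type 1 and 2. Its log2 fold change was 0.98 (SE 0.51, edgeR adjusted p = 0.950), so the difference did not pass the test, and leaving out wild type 3 lowered it to 0.57.

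The ratio of Platr13 to Platr15 reads within a library does not depend on depth or scaling. It does depend on how reads that fit both genes were assigned, which is not stated. In wild type 3 it rests on 8 and 23 reads, and no counting interval or background of other gene pairs was computed. It was 0.274, 0.355 and 0.348 in wild type 1 to 3 and 0.413, 0.807 and 1.19 in Yaf2KO 1 to 3. All 3 knockout ratios were above all 3 wild-type ratios, by little in Yaf2KO 1 and by more in Yaf2KO 2 and 3, and only in Yaf2KO 3 did Platr13 have more reads than Platr15. An exact test over 3 against 3 libraries cannot give a two-sided p below 0.1, and none is given. Over the 6 libraries the log2 scaled values of the pair had a Pearson r of 0.88, a description of 6 points that share libraries, scaling and part of their sequence.

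Platr17, the protein-coding member, had the most reads of the group in every library but Yaf2KO 3, with 137, 176 and 230 in wild type and 1150, 489 and 250 in Yaf2KO. Between Yaf2KO 3 and wild type 3 the gap was small, but all knockout counts were above all wild-type counts. Scaled, the order was the other way: 2044, 3037 and 3320 CPM in wild type (2801 ± 669.8, SD, n = 3) and 2369, 1929 and 1885 CPM in Yaf2KO (2061 ± 267.7, SD, n = 3). The groups overlapped, because wild type 1 lay below Yaf2KO 1. The log2 fold change relative to the typical listed gene was -0.44 (SE 0.37, edgeR adjusted p = 0.950), and with all libraries taken as equally deep it was 1.80.

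Platr3 had 47, 22 and 62 reads in wild type and 589, 110 and 73 in Yaf2KO. Most of its knockout reads came from Yaf2KO 1, and scaled values overlapped, at 701.4, 379.7 and 894.9 CPM in wild type against 1213, 433.9 and 550.3 CPM in Yaf2KO. The log2 fold change of 0.16 (SE 0.55, edgeR adjusted p = 0.950) became -0.44 without Yaf2KO 1.

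Platr6 and Platr23 were spread widely among the knockout libraries. Platr6 had 32, 14 and 32 reads in wild type and 283, 79 and 15 in Yaf2KO, or 477.5, 241.6 and 461.9 CPM against 582.9, 311.6 and 113.1 CPM. Platr23 had 18, 10 and 10 reads in wild type and 299, 66 and 9 in Yaf2KO, or 268.6, 172.6 and 144.3 CPM against 615.9, 260.3 and 67.85 CPM. In both genes Yaf2KO 1 was the highest of the 6 libraries and Yaf2KO 3 the lowest on the scaled values, so the wild-type libraries sat between knockout ones. The log2 fold change of Platr6 was -0.22 (SE 0.63) and that of Platr23 was 0.71 (SE 0.73), both with an edgeR adjusted p of 0.950; without Yaf2KO 1 that of Platr23 was -0.21. The difference between the highest and lowest knockout library was larger than the difference between the genotypes in both.

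Platr29 and Platr19 were close to the limit of detection and did not pass the filter on low counts. Platr29 had 2, 2 and 1 reads in wild type and 24, 5 and 1 in Yaf2KO. Platr19 had 2, 1 and 4 reads in wild type and 6, 5 and 0 in Yaf2KO. In a fit without that filter their log2 fold changes were 0.42 (SE 1.13) and -1.13 (SE 1.25), and a difference between genotypes was not detectable at these counts.

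**Figure D2:**
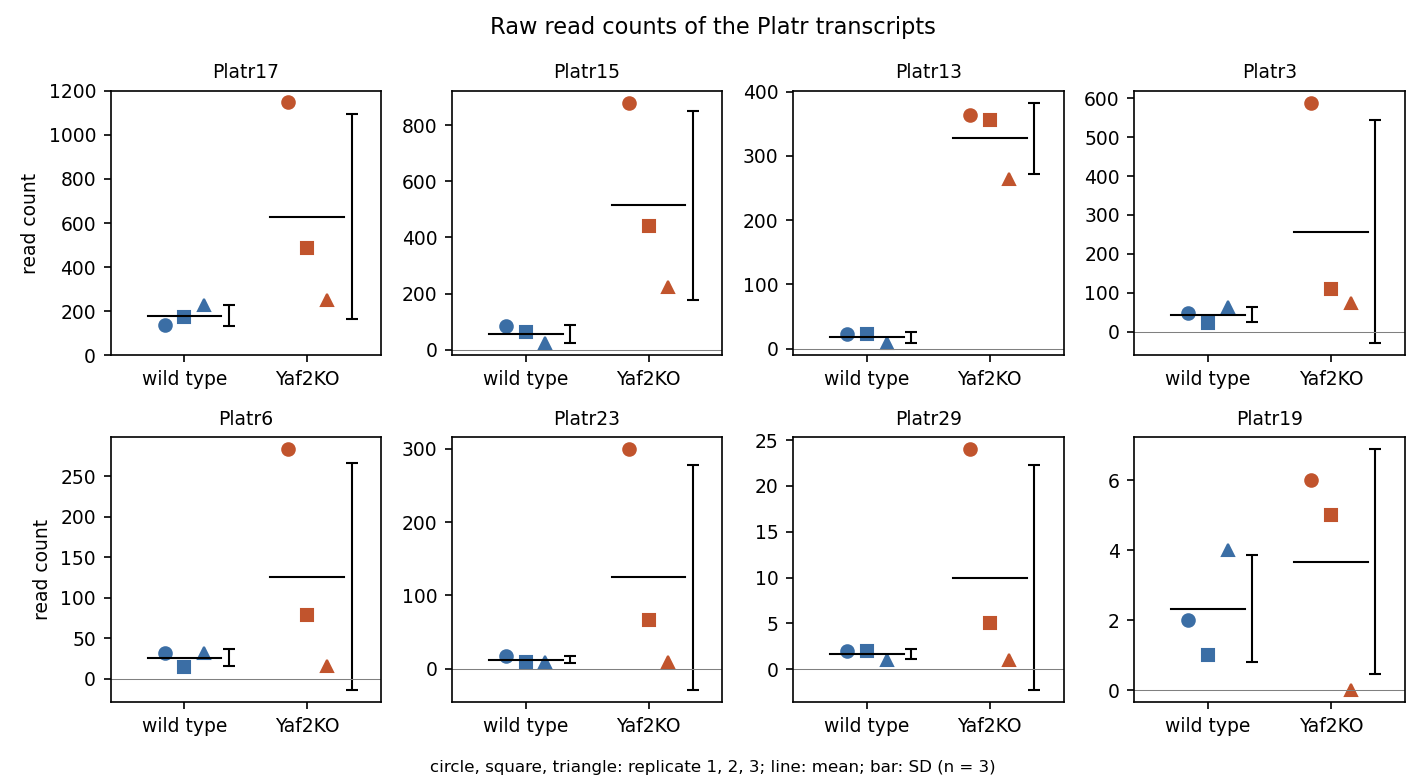
Raw read counts of the 8 Platr transcripts in 3 wild-type and 3 Yaf2KO libraries; circle, square and triangle are replicates 1, 2 and 3, the line is the mean and the bar the SD (n = 3), with a separate vertical axis per gene. Knockout counts lie above all wild-type counts for Platr13, Platr15, Platr17 and Platr3, and Yaf2KO 1 is highest throughout.

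**Figure D3:**
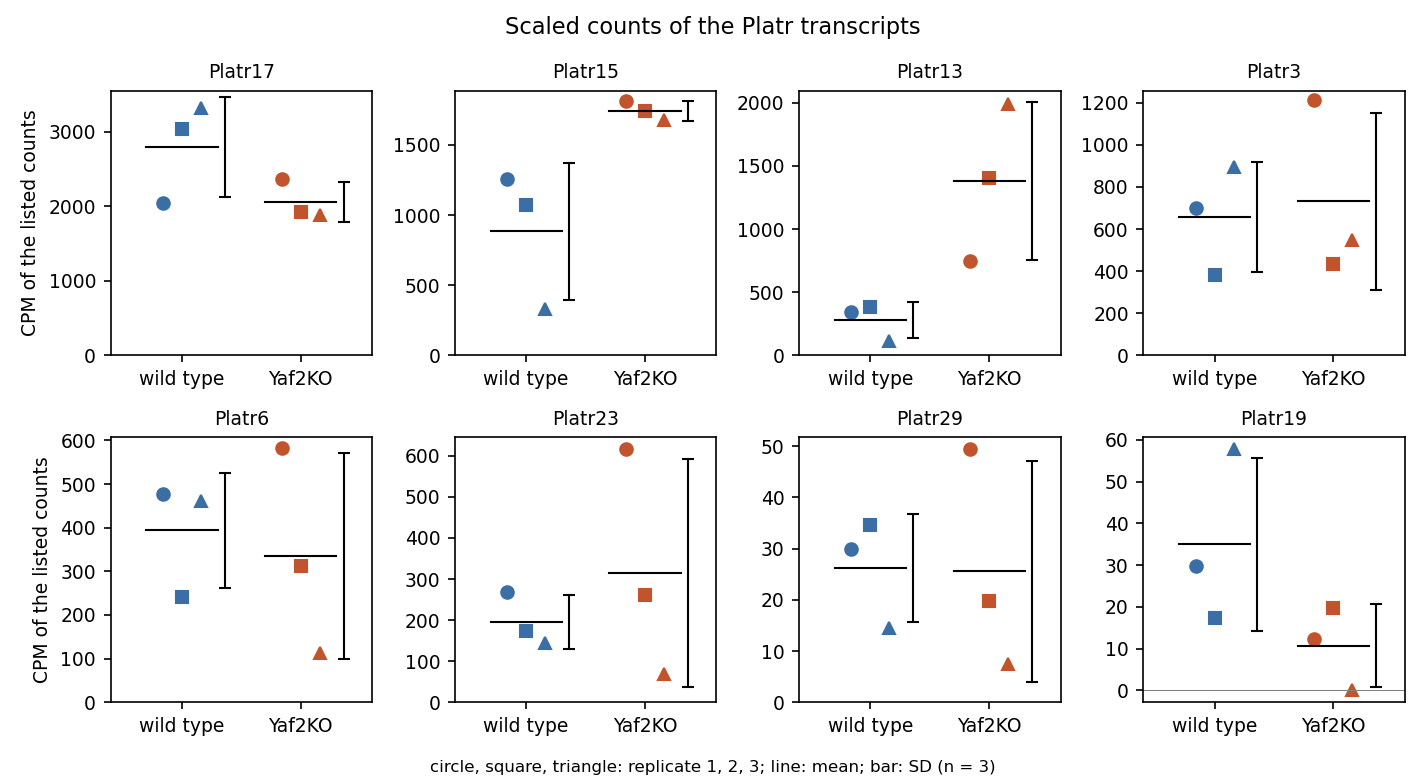
The same libraries as CPM of the listed genes after TMM scaling, with symbols, mean line and SD bar (n = 3) as in the plot of raw counts and a separate vertical axis per gene. Only Platr13 and Platr15 keep every Yaf2KO library above every wild-type library, and Platr6 and Platr23 spread from 113.1 to 582.9 CPM and from 67.85 to 615.9 CPM among the knockout libraries.

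Over the group, 0 of the 6 members that passed the filter were called at an adjusted p under 0.05 by edgeR's quasi-likelihood test, where 3 of all 376 tested genes were (0.798%). At an unadjusted p under 0.05, 1 member, Platr13, was counted, against 16 of the 376 (4.26%). With DESeq2's Wald test 1 of the 6 was called, Platr13 at an adjusted p of 0.00374, against 2.66% of all tested genes, and with limma-voom 0 were. Platr13 was also the 1 member called when no low-count filter was used (edgeR adjusted p = 0.00450), where 0.916% of all genes were called, and when Yaf2KO 1 was left out (edgeR adjusted p = 0.00554), where 3.17% were. With all libraries taken as equally deep, all 6 were called, higher in Yaf2KO, as were 75.7% of all genes tested then. Its adjusted p ranged from 0.00374 to 0.541 over the alternatives, and its log2 fold change was positive in all 16 fits, from 1.91 to 4.20. In the middle of the 6 tested members lay a log2 fold change of 0.43 (their median), beside -0.03 over all tested genes. Without Yaf2KO 1 the members' median was -0.33, beside -0.04, so 1 library set its direction.

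**Figure D4:**
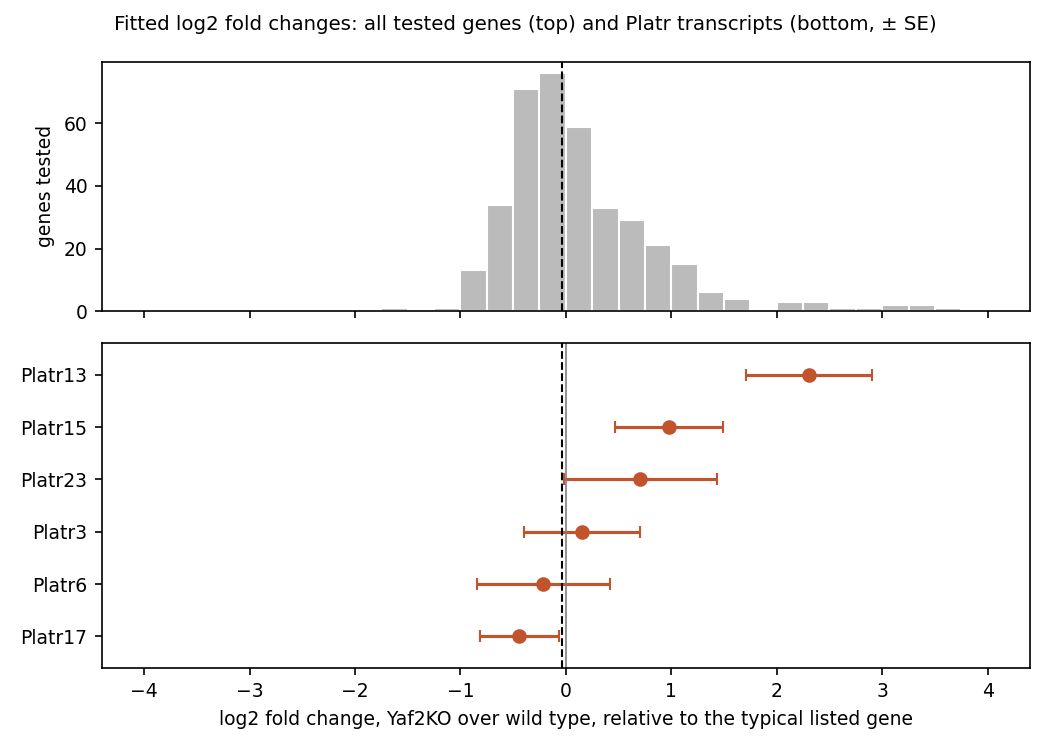
Top, histogram of the fitted log2 fold changes (Yaf2KO over wild type, relative to the typical listed gene) of the 376 tested genes; bottom, the 6 tested Platr transcripts with their standard errors. The dashed line is the median of all tested genes, at -0.03, and the members run from -0.44 for Platr17 to 2.30 for Platr13.

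Summed over the 3 libraries of a genotype, all 8 genes had more raw reads in Yaf2KO, as 1524 of the 1653 listed genes did. The ratio of these sums ran from 1.57 in Platr19 through 3.48 in Platr17, 4.83 in Platr6, 5.89 in Platr3, 6.0 in Platr29, 9.13 in Platr15 and 9.84 in Platr23 to the highest ratio, in Platr13, from 53 to 983 reads. Raw counts did not overlap in 4 of the 8, Platr3, Platr13, Platr15 and Platr17, while 27.4% of all listed genes were higher without overlap and 65.2% of the tested ones. Scaled values were higher in Yaf2KO without overlap in 2 of the 8, Platr13 and Platr15, where 4.11% of all listed genes and 6.12% of the tested ones were. They were lower without overlap in 0 members, against 2.84% of all listed genes.

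The 8 genes took 0.526%, 0.548% and 0.507% of the listed reads in wild type 1 to 3 (0.527% ± 0.0206, SD, n = 3) and 0.797%, 0.618% and 0.580% in Yaf2KO 1 to 3 (0.665% ± 0.116, SD, n = 3). The knockout shares were above all wild-type shares, but the Wilson 95% intervals of Yaf2KO 3 (0.543% to 0.621%) and wild type 2 (0.490% to 0.613%) overlapped. That of Yaf2KO 3 also overlapped those of wild type 1 (up to 0.584%) and wild type 3 (up to 0.561%). The interval of Yaf2KO 2 (0.588% to 0.649%) overlapped that of wild type 2, and only that of Yaf2KO 1 was clear of all wild-type intervals. The sum does not speak for each member, since scaled values were higher in Yaf2KO without overlap only in Platr13 and Platr15. Among the other members, mean scaled values were higher in Yaf2KO in Platr3 and Platr23. They were lower in Platr17, Platr6, Platr19 and, by little, Platr29. The share without Platr13 and Platr15 was not computed. The Wilson intervals cover counting error only.

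The share of each gene among the Platr reads is also free of depth and scaling, but not of how reads that fit several genes were assigned. The shares add up to the whole in each library, so a higher share of 1 gene lowers those of the others. Platr17 held 39.7%, 57.0% and 62.2% of the Platr reads in wild type, a spread well beyond counting error, and 32.0%, 31.5% and 30.0% in Yaf2KO. Higher Platr13 and Platr15 reads alone would lower the Platr17 share, and its scaled values overlapped between the genotypes. Its share without that pair was not computed. Platr13 held 6.67%, 7.12% and 2.16% in wild type and 10.1%, 23.0% and 31.7% in Yaf2KO, so Yaf2KO 1 lay near wild type 1 and 2 while Yaf2KO 3 lay far above. Its Wilson 95% interval was 4.48% to 9.81% in wild type 1 and 9.16% to 11.1% in Yaf2KO 1, which overlap, and 28.6% to 34.9% in Yaf2KO 3. Platr15 held 24.3%, 20.1% and 6.22% in wild type and 24.5%, 28.4% and 26.6% in Yaf2KO, with wild type 3 apart from the other 5 libraries. Platr23 went from 8.32% in Yaf2KO 1 to 1.08% in Yaf2KO 3, and Platr6 from 7.87% to 1.80%, a gap between knockout libraries that the intervals do not bridge.

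**Figure D5:**
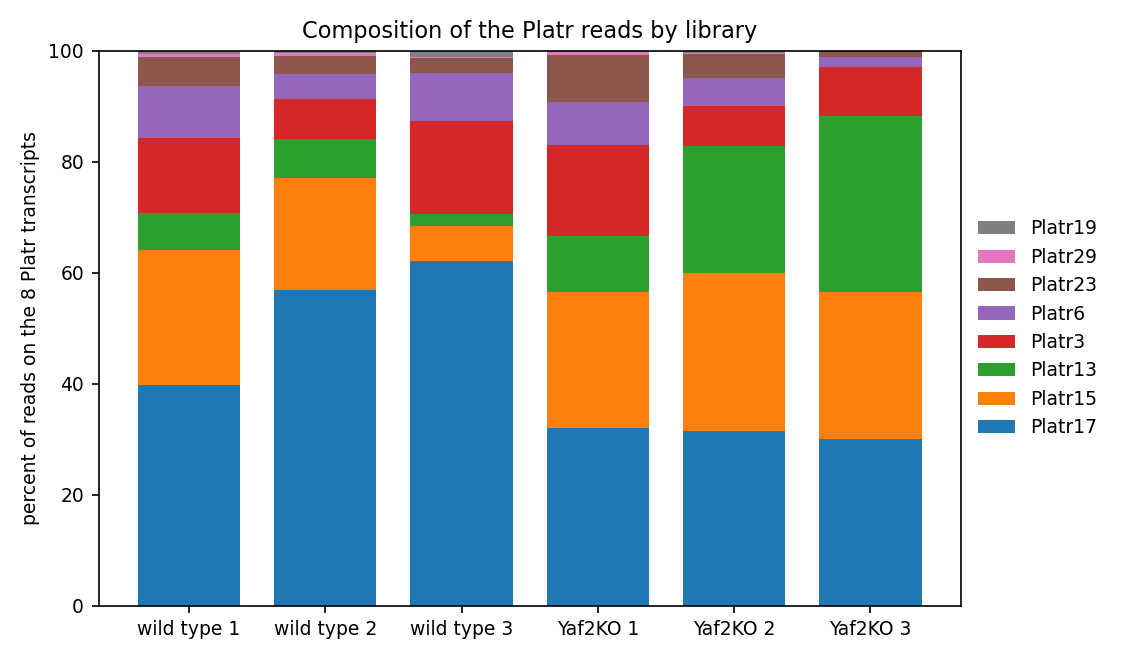
Percent of the reads on the 8 Platr transcripts that each of them took, in each of the 6 libraries as stacked bars from 0 to 100%. The Platr17 share is 39.7% to 62.2% in wild type and 30.0% to 32.0% in Yaf2KO, and the Platr13 share reaches 31.7% in Yaf2KO 3.

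Levels between genes can be compared only per length. Per kilobase of exon, in scaled CPM, wild type had the order Platr17 (3470 ± 830.0, SD, n = 3), Platr3 (1599 ± 631.7), Platr15 (1153 ± 635.1), Platr13 (745.2 ± 381.8), Platr6 (216.5 ± 72.57) and Platr23 (80.02 ± 26.71), with Platr29 and Platr19 at or below 31.64. Platr3 and Platr15 differed by less than either SD, and Platr15 and Platr13 by less than the SD of Platr15 but more than that of Platr13, whereas Platr17 stood above Platr3 and Platr13 above Platr6 by more. In Yaf2KO the order was Platr13 (3682 ± 1657, SD, n = 3), Platr17 (2554 ± 331.7), Platr15 (2268 ± 90.65), Platr3 (1778 ± 1020), Platr6 (184.8 ± 129.7) and Platr23 (129.0 ± 114.0). Among the first 4, each neighbouring pair differed by less than the larger of its SDs and by more than the smaller, and all 4 stood above Platr6 by more than their SD.

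The Platr transcripts did not vary as 1 group over the libraries. Platr13 and Platr15 went together, Platr6 and Platr23 went together (Pearson r = 0.82 of log2 scaled values, n = 6 libraries), and Platr17 ran against Platr13 (r = -0.82) and Platr15 (r = -0.80). These values describe 6 points that share libraries and scaling. Among tested genes outside the group, the most alike by the same measure were Wt1 (r = 0.92), Prtg and Psors1c2 for Platr13, and Gm22 (r = 0.96), Psors1c2 and Dner for Platr15. For Platr17 they were Icam5 (r = 0.99), Cpne5 and Lrriq4, and for Platr3 they were 1700097N02Rik (r = 0.98), Gpa33 and Hal. Platr6 was most like Gpat2 (r = 0.97), Nanog (r = 0.95) and Prdm14 (r = 0.95); Nanog and Prdm14 are pluripotency genes. Platr23 was most like Nfib (r = 0.95), Arl14epl and Cpsf4l. With 376 tested genes and 6 libraries, the highest correlations are large in any case.

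Beside these, 3 of the 53 symbols on a fixed list of other long non-coding RNAs are among the listed genes. Halr1, transcribed near the Hoxa cluster, had 3, 1 and 1 reads in wild type and 166, 76 and 15 in Yaf2KO, with a log2 fold change of 3.27 (SE 0.76, edgeR adjusted p = 0.111). Sox2ot, which overlaps Sox2, had 13, 7 and 16 reads against 111, 28 and 22, with a log2 fold change of -0.11 (SE 0.56). Both missed the threshold of edgeR, as all tested Platr transcripts did, and Halr1 passed that of DESeq2, as Platr13 did. With so few wild-type reads Halr1 passed the low-count filter only through Yaf2KO, where it is high, so its call is description only. Tsix, the antisense RNA of Xist, had 3 to 7 reads in wild type and 5 to 18 in Yaf2KO and was not tested. Scaled, the direction was the other way, from few reads: 104.5, 51.77 and 101.0 CPM in wild type against 37.08, 35.5 and 37.69 CPM in Yaf2KO. Scaled values were lower without overlap in 2.84% of all listed genes.

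Of the 34 core and naive pluripotency factors 8 are listed and tested, and 0 were called by edgeR, with a median log2 fold change of -0.13. Only Klf4 had an unadjusted p under 0.05 and was called by DESeq2, and limma-voom called 0 of them; it had 148, 94 and 160 reads in wild type against 5073, 1120 and 507 in Yaf2KO (log2 fold change 1.61, SE 0.45, edgeR adjusted p = 0.177). The 2 with the most reads were Nanog (-0.09, SE 0.33) and Klf5 (-0.21, SE 0.37), and the summed level of the 8 ran from 59590 to 69210 CPM in wild type and from 41110 CPM in Yaf2KO 3 to 88810 CPM in Yaf2KO 1. Yaf2KO 1 was thus highest and Yaf2KO 3 lowest, the same places that these libraries take for Platr6 and Platr23. Of the 20 symbols on the primed epiblast list 8 are listed, and all were tested. Of these 1, Lef1, was called by edgeR, higher in Yaf2KO (log2 fold change 3.51, SE 0.64, edgeR adjusted p = 0.0434), where 0.798% of all tested genes were called. DESeq2 called 3 of the 8, Lef1, Otx2 and Fgf5, where it called 2.66% of all tested genes, and limma-voom called 0. In wild type Lef1 had 9, 5 and 12 reads and Fgf5 0, 3 and 2, so neither passed the low-count filter on its wild-type libraries alone. Both entered the test through Yaf2KO, where they are high, so their calls beside these shares are description only. The summed primed level was 91880 CPM in Yaf2KO 3 and 41010 to 54370 CPM in the other 5 libraries. Yaf2KO 3 is also where Platr13 was highest. Of the genes that DESeq2 called, Fgf5 was highest there too (331.7 CPM). Lef1 and Otx2 had 987.5 and 3046 CPM there and were highest in Yaf2KO 1, at 2709 and 4079 CPM. In Yaf2KO 1 Platr13 was lowest among the knockout libraries. Of the 26 mesoderm and endoderm genes 8 are listed and 6 tested, and 1, Wnt8a, was called by edgeR, also higher (3.23, SE 0.55, edgeR adjusted p = 0.0434), and by DESeq2, but not by limma-voom. Wnt8a had 7, 3 and 4 reads in wild type and likewise passed the filter only with its Yaf2KO libraries. The edgeR calls of Lef1 and Wnt8a were both lost when any 1 wild-type library was left out.

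Levels of the fibroblast markers differed between the libraries as well; the share of feeder cells was not measured. Of 25 fibroblast markers 7 are listed, and their summed level was 22850 to 29550 CPM in wild type and 9300, 49290 and 30840 CPM in Yaf2KO 1 to 3. It was lowest in Yaf2KO 1, where Platr3, Platr6 and Platr23 were highest. Postn and Prrx1 were at 0 reads there, but had at most 3 reads in any wild-type library, and Postn was at 0 in wild type 3 too. The 2 tested markers with the most reads were the contractile genes Tagln (log2 fold change 0.20, SE 0.52) and Acta2 (0.60, SE 0.78), which are not specific to fibroblasts. The other tested markers differed in direction: Cnn1 had 0.61 (SE 0.46), Col1a1 0.04 (SE 0.66) and Myl9 -0.61 (SE 0.40). Col1a1 had 597.4 CPM in Yaf2KO 1 and 3031 to 5866 CPM in the other libraries. Of the 5 tested markers 0 were called by edgeR, DESeq2 or limma-voom, and 0 had an unadjusted p under 0.05 by edgeR. Their part in the values of the Platr transcripts was not tested. Of 8 primitive endoderm markers only Sox7 is listed (-0.42, SE 0.55), and of 6 markers of 2-cell-like cells none is.

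Genes beside the Platr loci gave few reads. Within 500 kb of the 8 genes 12 other genes are listed, 3 of them were tested, and 0 were called by edgeR, DESeq2 or limma-voom or had an unadjusted p under 0.05 by edgeR. Myo1f, 297.4 kb from Platr17, had a log2 fold change of 1.20 (SE 0.57). Raet1e and E030030I06Rik, both near Platr6, had 0.50 (SE 0.47) and -0.41 (SE 0.57). Of the 9 that were not tested, Psmb8 near Platr17 had 3, 2 and 9 reads in the wild-type libraries against 38, 19 and 27 in Yaf2KO. Gm33994, 42.6 kb from Platr23, had 1, 1 and 2 against 30, 9 and 0, and Gm26781, 347.7 kb from Platr23, had 1, 2 and 4 against 3, 3 and 4. Scaled values of Psmb8, Gm33994 and Gm26781 overlapped between the genotypes. Gm14143 near Platr15, Gm4895 and Gm29323 near Platr6, and Pram1, BC051142 and H2-Eb2 near Platr17 had at most 10 reads in any library. Zfp281, Sgk1, Plcb4, Ncoa3 and Mycn were not analysed here.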

How the data were processed

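RNA was poly-T selected and made into libraries with a NEBNext Ultra kit, per the labels' protocols. The deposited values are raw read counts, 1 library to a file with gene coordinates beside them, per the file headers. HTSeq 0.6.0, TopHat2 2.0.12, Cufflinks 2.2.1 and mm10 appear, without roles, in the submitters' processing notes; strand and multi-match settings, and how the 1653 listed genes were chosen, are not given in the sources used here.

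All listed genes were fitted together with edgeR 4.0.16 (R 4.3.3, glmQLFit robust, glmQLFTest), TMM factors on the listed sums (0.923 to 1.08), filterByExpr and Benjamini-Hochberg adjustment at 0.05. The fit was tested on simulated data: of 401 tested genes it called 23 of the 25 raised 8-fold, 5 of the 13 raised 4-fold, all 8 lowered to 0.125 and 1 of the 2 lowered to 0.25 of their level, and 2 of the 353 left unchanged. Alternatives were DESeq2 1.42.0, limma-voom (limma 3.58.1), 3 other scalings, equal depth, 2 other filters, the replicate number as a block and each library left out. No pair of libraries agreed within sampling noise (lowest chi-square per degree of freedom 6.44). Exon sequences, gene types and shared windows came from GENCODE vM21, and alignments were made with Biopython 1.88.

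The Platr genes, the lists and the tests were chosen with earlier results of these data known. Named are all 8 Platr genes, called members of each list or otherwise the 2 tested ones with the most reads, listed genes within 500 kb, and the 3 most correlated genes per tested member. Tsix, Klf4, Otx2, Fgf5, Postn, Prrx1, Cnn1, Col1a1 and Myl9 were named after their values were seen. Tables and plots were made in Python 3.11.15 with matplotlib 3.10.9, scipy 1.17.1, pandas 2.3.3 and numpy 2.4.6.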

Additional observations from a re-analysis of the deposited data

How the results depend on the processing

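Of the Platr transcripts 0 were called by edgeR, 1 with the DESeq2 Wald test, with no filter and with a minimum mean CPM of 1, and 6 with equal depth; leaving out 1 library gave 0 to 1 (1 without Yaf2KO 1). That 1 was Platr13 in each case. Of all listed genes 3 were called, 314 with equal depth, 10 with DESeq2, 0 with limma-voom (14 at an unadjusted p under 0.05) and 15 with either of those filters, and leaving out 1 library gave 0 to 11 (11 without Yaf2KO 1, 0 without any 1 wild-type library). Same-numbered libraries deviated together with r of 0.02, 0.14 and 0.14, so the numbers were not taken as pairs; with the replicate number as a block 0 Platr transcripts and 0 listed genes were called (18 listed genes at an unadjusted p under 0.05), and Platr13 had a log2 fold change of 2.28 (edgeR adjusted p = 0.452). Raw counts did not overlap in 4 Platr transcripts, and in 4 to 8 with 1 library left out (8 without Yaf2KO 3); scaled values did not overlap in 2, and in 4 with equal depth. Without Platr17 the Platr share of the listed reads was 0.248% in wild type and 0.457% in Yaf2KO. Platr17 is a member with a lower mean scaled level in Yaf2KO, so leaving it out favours Yaf2KO in this comparison. The share without Platr13 and Platr15, the members with higher scaled values in every Yaf2KO library, was not computed.

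Direction changed against the values given above for Platr17 (1.80 with equal depth), Platr3 (-0.04 without wild type 2, -0.44 without Yaf2KO 1), Platr23 (-0.21 without Yaf2KO 1) and Platr6 (2.27 with equal depth, 0.17 with either of those filters, 0.04 without wild type 1, 0.19 without Yaf2KO 3). The median log2 fold change of all tested genes was 2.12 with equal depth, 0.07 with DESeq2 size factors, -0.11 with upper-quartile factors and 0.20 without a filter, so most of the equal-depth shift is common to the listed genes. With 1 library left out, the log2 fold change ran from -0.44 to 0.42 in Platr3, from -0.87 to 0.19 in Platr6 and from -0.21 to 1.16 in Platr23. The cause of the other shifts was not tested. Low counts limit Platr19 and Platr29, and in the simulation, with the same dispersion for all genes, 8 of 13 genes raised 4-fold were not called.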

Other observations

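The deposited annotation gives the label of the retroviral capsid domain Gag p30 to 3 of the listed genes, Platr13, Platr15 and Gm43673. This group was noticed after the values were seen, so it gets no test. Gm43673 had 1, 0 and 1 reads in wild type and 15, 2 and 10 in Yaf2KO, or at most 14.9 CPM in wild type against 30.9, 7.89 and 75.4 CPM, with Yaf2KO 2 below 2 of the wild-type libraries.

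RefSeq promoter windows (GRCm38.p6, 250 bases before to 50 after a gene start) were held for Platr3 (1 window) and Platr6 (2 windows), with starts 2384 bases from the counted start in Platr3 and 1182 and 2761 bases in Platr6. On both strands 0 of these 3 windows held the octamer ATGCAAAT, found in 1.74% of all 32851 windows, the ESRRB-type motif TCAAGGTCA (0.423%), the E-box TCACGTG bound by MGA and MAX (3.77%) or the E2F6-type motif GGCGGGAA (2.19%). The absence of a match says only that these letters are not in these windows.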
